A study of Mus musculus with 4 samples.

Results

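The genes described here are 10 effector genes of invariant natural killer T (iNKT) cells and natural killer (NK) cells, read in CD4+CD8+ double-positive (DP) thymocytes: Gzma, Gzmb, Plac8, Nkg7, Ccl5, Xcl1, Cxcr3, Cxcr6, Tbx21 and Zbtb16. They were taken by symbol, and each matched 1 row, so all 10 were found among the 56239 genes of the count table. The 4 libraries come from C57BL/6 mice. The 2 wild-type (WT) libraries are from mice with loxP-flanked Chaf1b on both alleles and no Cre. The 2 knockout (KO) libraries are from mice with the same alleles plus Cd4-cre, in which Cre recombinase is driven by Cd4 regulatory elements and so acts from the DP stage on in the alpha-beta T lineage. Chaf1b encodes a subunit of chromatin assembly factor 1, a histone chaperone complex that loads H3-H4 behind the replication fork. The series title concerns the development and the functional maturation of iNKT cells, which arise from DP thymocytes. Neither the age of the mice nor how many were pooled per library is stated in the labels.

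DP thymocytes are the stage at which the T cell receptor alpha chain is assembled and tested, and cells at this stage have not yet acquired effector functions. iNKT and NK cells differ from conventional thymocytes in holding effector transcripts in a ready state. The products fall into several roles: granzymes are serine proteases released from cytotoxic granules, Nkg7 is a granule membrane protein, Ccl5 and Xcl1 are secreted chemokines, Cxcr3 and Cxcr6 are chemokine receptors, and Tbx21 (T-bet) and Zbtb16 (PLZF) are transcription factors that direct the innate-like programme. Plac8 encodes a small cysteine-rich protein found in several lymphoid and myeloid cell types.

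The promoter windows of Gzma and Plac8 are shown because some fits, but not all, called these genes higher in KO. That of Gzmb is shown because this second granzyme had no counts in any library. Each window is from RefSeq on GRCm38.p6, 250 bases before to 50 after the annotated start, on the gene's own strand. Capitals mark the RUNX core TGTGGT, the T-box core GGTGTG or the ETS core AGGAAG on either strand.
Gzma, chr13:113100932-113101231, minus strand: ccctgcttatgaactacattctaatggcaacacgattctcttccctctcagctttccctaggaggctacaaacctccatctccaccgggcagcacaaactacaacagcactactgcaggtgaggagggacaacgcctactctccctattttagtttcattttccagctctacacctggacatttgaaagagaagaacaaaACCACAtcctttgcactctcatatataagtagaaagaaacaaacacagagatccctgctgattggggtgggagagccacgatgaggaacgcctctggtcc
Plac8, chr5:100572156-100572455, minus strand: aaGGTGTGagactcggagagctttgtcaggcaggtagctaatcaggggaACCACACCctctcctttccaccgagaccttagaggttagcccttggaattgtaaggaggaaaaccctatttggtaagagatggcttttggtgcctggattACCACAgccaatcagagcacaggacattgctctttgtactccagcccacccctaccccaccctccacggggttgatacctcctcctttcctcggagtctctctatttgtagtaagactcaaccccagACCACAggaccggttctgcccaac
Gzmb, chr14:56262285-56262584, minus strand: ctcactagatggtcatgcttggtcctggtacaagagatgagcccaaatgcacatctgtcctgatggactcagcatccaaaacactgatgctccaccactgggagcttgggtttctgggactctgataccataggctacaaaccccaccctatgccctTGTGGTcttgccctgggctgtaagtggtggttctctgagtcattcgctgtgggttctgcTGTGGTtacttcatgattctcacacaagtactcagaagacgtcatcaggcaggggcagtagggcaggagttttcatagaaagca
The Gzma window held 1 RUNX core, 50 bases before the start, and no T-box core. The Plac8 window shown held 3 RUNX cores, of which the one that begins 201 bases before the start overlaps a T-box core. Another Plac8 window, chr5:100563047-100563346, is not shown and held 0 RUNX, 0 T-box and 0 ETS cores. The Gzmb window held 2 RUNX cores. Of the 8 genes with a window in the table (Ccl5 and Zbtb16 had none), 7 held a RUNX core in at least 1 window, Tbx21 being the exception, against 18.9% of all 27025 genes with a window and 15.4% of the 10018 such genes that were tested. A T-box core was found in 3 of the 8 (Plac8, Nkg7 and Xcl1), against 21.4% of all genes with a window. An ETS core was found in 4 of the 8, against 38.4%, and an E-box, CANNTG, in 7 of the 8, against 75.0%. Plac8 counts among these 7 only through the window that is not shown. CpG dinucleotides were few in most of these windows: the Gzma window had 5, the Gzmb window 2 and the Tbx21 window 21, beside a median of 7 over 32851 windows. Matches are letters in a window and were not tied to any measured binding.

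The WT libraries held 23215539 and 27369874 counts in all and the KO libraries 24688653 and 21068760 (replicates 1 and 2). A gene with 0 counts may hold up to 3 counts by chance, which is 0.110 to 0.142 CPM (counts per 1000000 counts of the library), depending on the library. Chaf1b itself measured 28.4 and 32.9 CPM in the WT libraries against 11.2 and 15.2 in the KO libraries, counted over all exons including those outside the deleted part. The DP genes Cd4, Cd8a, Cd8b1 and Rag1 had at least 40829 counts in every library, and the 10 DP markers summed to 16080 and 16120 CPM in WT and to 17752 and 16478 CPM in KO. Replicate 1 of each genotype had 47368 and 47301 counts of Xist and replicate 2 had 8 and 12, so the replicate numbers separate female from male cells. KO replicate 1 stood apart, with 3.30% of its counts from mitochondrial genes against 2.03% in KO replicate 2 and 1.33% and 1.45% in WT.

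All but 1 of the effector genes were barely detected in DP thymocytes. Gzma (ENSMUSG00000023132, chromosome 13, 113093825 to 113100981, GRCm38, minus strand, 6 exon blocks) held 89.3% of all counts of the 10 genes. In RPKM (CPM divided by exon length in kilobases) its mean level over the 4 libraries was 30.6, with a range of 18.2 to 49.7. This mean was above that of 96.8% of all 56239 genes in the table, of which 26019 had at least 1 count. Next came Ccl5 at 0.878 RPKM, Plac8 at 0.677, Cxcr6 at 0.382, Nkg7 at 0.288 and Tbx21 at 0.242. The lowest were Cxcr3 at 0.0708, Xcl1 at 0.0206, Zbtb16 at 0.00767 and Gzmb at 0. The lowest Gzma library lay far above the highest Ccl5 library (1.19 RPKM), whereas below Gzma the ranges of each gene and the next in this order overlapped. The 9 genes other than Gzma had 57 and 81 counts together in WT and 126 and 90 in KO.

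**Figure D1:**
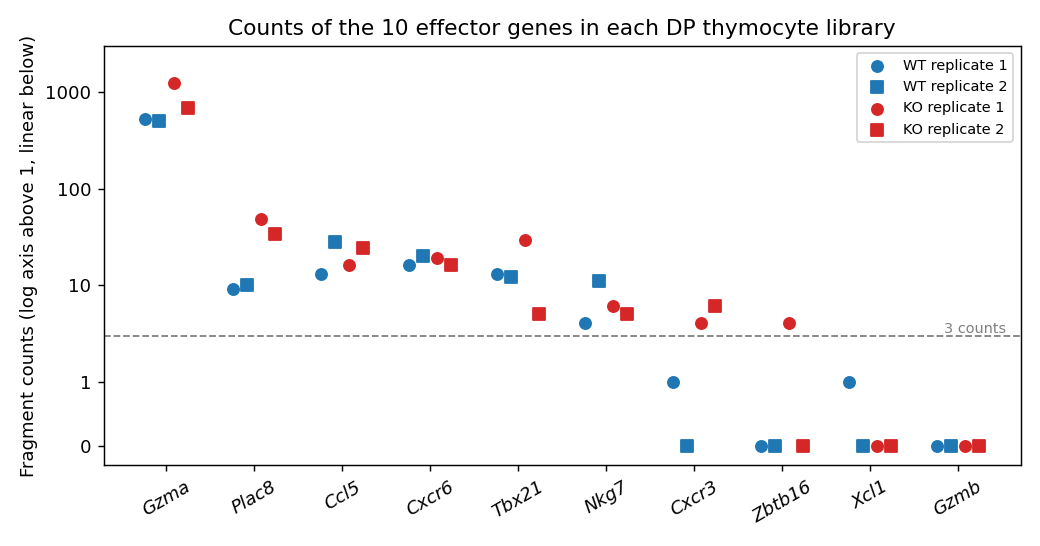
Fragment counts of each of the 10 genes (x axis) in each library (points; circles replicate 1, squares replicate 2) on a y axis that is logarithmic above 1 and linear below, with a dashed line at 3 counts. Gzma lies between 500 and 1235 counts, the next 5 genes lie between 4 and 48, and Gzmb is at 0 in all 4 libraries.

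Gzma, whose product granzyme A cleaves proteins after basic residues in target cells, was higher in both KO libraries. It had 530 and 500 counts in WT replicates 1 and 2 and 1235 and 675 in KO replicates 1 and 2. These are 22.8 and 18.3 CPM in WT and 50.02 and 32.0 CPM in KO, or 20.5 ± 3.22 CPM against 41.0 ± 12.7 CPM (SD, n = 2). The groups did not overlap, but the KO libraries differed more from each other (exact Poisson 95% counting intervals of 47.3 to 52.9 and 29.7 to 34.5 CPM) than the WT libraries did. The level of KO replicate 2 lay above the interval of WT replicate 1, which ended at 24.9 CPM. In bulk RNA, more cells of a type that holds Gzma and more Gzma RNA per DP cell cannot be told apart. The KO minus WT log2 difference was 1.28 in the replicate 1 pair and 0.82 in the replicate 2 pair. Ribosomal protein transcripts, at 2.59% and 2.65% of the counts in WT and 4.39% and 3.24% in KO, were also highest in KO replicate 1, and their part in the Gzma values was not tested.

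Plac8 (ENSMUSG00000029322, chromosome 5, 100553725 to 100572245, minus strand, 5 exon blocks) showed the larger ratio at a far lower level. It had 9 and 10 counts in WT replicates 1 and 2 and 48 and 34 in KO replicates 1 and 2, which are 0.388 and 0.365 CPM against 1.94 and 1.61 CPM. The mean was 0.377 ± 0.016 CPM in the WT libraries and 1.78 ± 0.234 in the KO libraries (SD, n = 2). The groups did not overlap, and neither did the counting intervals: those of WT ended at 0.736 and 0.672 CPM, and those of KO began at 1.43 and 1.12 CPM. From summed counts, the KO to WT ratio was 4.77 with an exact 95% interval of 2.87 to 8.32, which covers counting error only. Plac8 passed the filter on low counts through the KO libraries alone, so some difference was built into its being tested. The log2 difference was 2.25 in the replicate 1 pair and 1.93 in the replicate 2 pair.

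**Figure D2:**
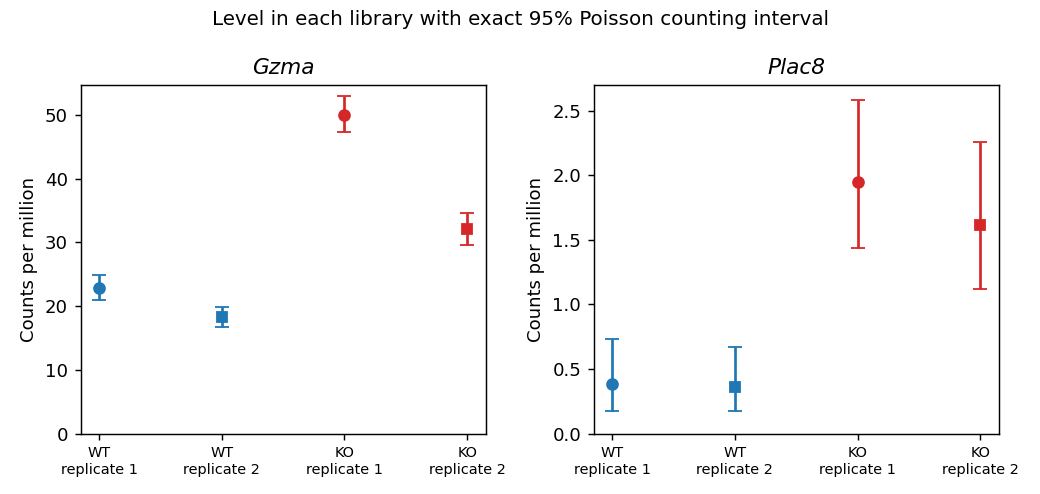
Level of Gzma (left) and Plac8 (right) in CPM (y axes from 0) in each of the 4 libraries, with exact 95% Poisson counting intervals as bars. For both genes each KO library lies above both WT libraries, and for Gzma KO replicate 1 at 50.02 CPM lies well above KO replicate 2 at 32.0 CPM.

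Whether these differences passed a test over all genes depended on the fit. Of the 10 genes, 5 passed the filter (Gzma, Plac8, Ccl5, Cxcr6 and Tbx21) among 15070 tested. Without a sex term, edgeR's quasi-likelihood test called none of the 5 (0 higher, 0 lower; threshold of 0.05 on the adjusted p), where it called 0.00664% of all tested genes higher and 0% lower. At an unadjusted p under 0.05 there were 2, Gzma and Plac8, beside 16.8% of all tested genes, and the edgeR adjusted p was 0.267 for both. DESeq2 called Gzma, where it called 4.08% of the 10979 genes to which it gave an adjusted p (1.57% higher, 2.51% lower), and it gave Plac8 none. The limma-voom fit called 0 of the 5, and 0.00664% of all tested genes. The replicate number, which here separates the sexes, was then added as a term, called the sex term. It takes up anything that equal replicate numbers share, not sex alone. With this term, edgeR called Gzma and Plac8 higher and none lower. It called 3.21% of all tested genes, 1.01% higher and 2.2% lower. Of these 2 calls only Gzma is of a gene that passed the filter in both genotypes, since Plac8 was tested through its KO libraries alone.

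In that sex-term fit Gzma rose with a log2 fold change of 1.06 ± 0.17 (SE; edgeR adjusted p = 0.0194), beside 1.10 ± 0.28 without the term. For Plac8 the estimate was 2.30 ± 0.49 (SE; edgeR adjusted p = 0.0336), beside 2.32 ± 0.43 without it, and these values are a description, since the filter had selected the gene by its KO level. As folds from the fit without the term, these are 2.14 for Gzma (95% interval 1.34 to 3.44) and 4.99 for Plac8 (2.43 to 10.3). With library totals in place of TMM scaling the sex-term fit still called Gzma (edgeR adjusted p = 0.0466) but not Plac8 (edgeR adjusted p = 0.0561), and with a robust dispersion estimate it likewise called Gzma (0.0353) and not Plac8 (0.0539). Without KO replicate 1, in the fit with no sex term, the Gzma log2 fold change was 0.65, and without KO replicate 2 it was 1.44. Plac8 stood at 2.09 and 2.51 in the same 2 fits. Each of these fits holds 1 KO library, so the spread within KO could not be estimated and only the fold changes are given. Both KO libraries lay above both WT libraries for 3 of the 5 tested genes, Gzma, Plac8 and Cxcr6, and for 21.7% of all tested genes.

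**Figure D3:**
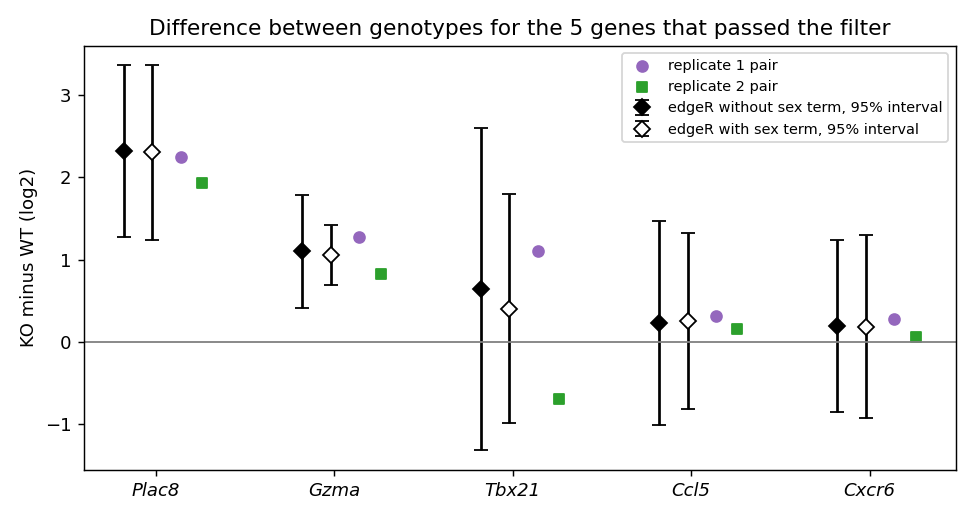
KO minus WT differences on the log2 scale (y axis) for the 5 genes that passed the filter, as edgeR estimates without (filled) and with (open) the sex term with 95% intervals, and as the difference within each replicate pair (circles and squares). The Plac8 and Gzma intervals lie above 0, those of Tbx21, Ccl5 and Cxcr6 span 0, and for Tbx21 the pairs lie on opposite sides of 0.

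The other granule genes among the 10 were at or near the detection floor. Gzmb (ENSMUSG00000015437, chromosome 14, 56258838 to 56262260), which encodes the granzyme that cleaves after aspartate, had 0 counts in all 4 libraries. A count of 0 allows up to 0.129 and 0.110 CPM in the WT libraries and 0.122 and 0.142 CPM in the KO libraries. Gzma was thus counted in libraries in which Gzmb was not detectable at this depth. Any Gzmb reads that also mapped elsewhere would have been left out of its count. Nkg7 (ENSMUSG00000004612, chromosome 7, 43437073 to 43438249) had 4 and 11 counts in WT and 6 and 5 in KO, the groups overlapped, and it did not pass the filter. Its KO to WT ratio from summed counts was 0.811, with a counting interval of 0.337 to 1.89.

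The counts of both chemokine genes overlapped between the genotypes. Ccl5 (ENSMUSG00000035042, chromosome 11, 83525778 to 83530518) had 13 and 28 counts in WT and 16 and 24 in KO, which are 0.560 and 1.02 CPM against 0.648 and 1.14 CPM. The replicates of each genotype differed more than the genotypes, with replicate 2 above replicate 1 in both. Its log2 fold change was 0.23 ± 0.51 (SE; edgeR adjusted p = 0.835), with a 95% interval of -1.01 to 1.47, so changes of up to about that size in either direction could not be told apart from 0. Xcl1 (ENSMUSG00000026573, chromosome 1, 164931644 to 164935527), the ligand of the dendritic cell receptor Xcr1, had 1 count in WT replicate 1 and 0 elsewhere. Of its 523 exon bases, 98 are shared with the antisense model Gm20743, where reads were left out of both counts.

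The chemokine receptors differed from each other. Cxcr6 (ENSMUSG00000048521, chromosome 9, 123806475 to 123811760, plus strand), which guides cells to sites that make Cxcl16, had 16 and 20 counts in WT and 19 and 16 in KO. These are 0.689 and 0.731 CPM against 0.770 and 0.759 CPM, so the KO libraries lay above the WT libraries by less than any counting interval, for instance 0.446 to 1.13 CPM in WT replicate 2. Its log2 fold change was 0.19 ± 0.43 (SE; edgeR adjusted p = 0.835), with a 95% interval of -0.85 to 1.24. The gene lies within the span of Fyco1 on the opposite strand and shares no exon base with it. Counting took no account of strand, so intron reads of Fyco1 that fell on Cxcr6 exons would be among these counts. Fyco1 had 2435 and 2943 counts in WT and 1614 and 1869 in KO.

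Cxcr3 (ENSMUSG00000050232, chromosome X, 101731535 to 101734269), a receptor for interferon-induced chemokines, had 1 and 0 counts in WT and 4 and 6 in KO. The WT libraries were at or under 1 count and both KO libraries over 3, but the gene did not pass the filter and has no test over all genes. From summed counts, its KO to WT ratio was 11.1, with a counting interval of 1.57 to 480.

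Of the transcription factors, Tbx21 (ENSMUSG00000001444, chromosome 11, 97098071 to 97115331) was split between the KO libraries. It had 13 and 12 counts in WT and 29 and 5 in KO, which are 0.560 and 0.438 CPM against 1.17 and 0.237 CPM. KO replicate 1 was the highest library and KO replicate 2 the lowest, and their counting intervals (0.787 to 1.69 and 0.077 to 0.554 CPM) did not overlap. The log2 difference was 1.11 in the replicate 1 pair and -0.69 in the replicate 2 pair, and the edgeR log2 fold change was 0.64 ± 0.80 (SE; edgeR adjusted p = 0.691). Zbtb16 (ENSMUSG00000066687, chromosome 9, 48654297 to 48836222), the factor required for iNKT effector maturation, was counted in KO replicate 1 alone, with 4 counts there and 0 in WT replicates 1 and 2 and KO replicate 2. The 4 counts lie just above the limit of 3 that a count of 0 allows.

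Genes with related roles, on lists of 101 companion genes without the 10 above, gave few calls. Of these, 50 were tested. Without the sex term edgeR called 0 higher and 0 lower, and 7 of the 50 had an unadjusted p under 0.05, a share below the 16.8% of all tested genes. DESeq2 called 1 and limma-voom 0, beside their 4.08% and 0.00664% of all genes. With the sex term 1 rose and 0 fell, Il12rb2, whose product is part of the receptor for interleukin-12, by which NK and T cells are driven to effector function. The median log2 fold change of the 50 was 0.23 without the term, beside 0.00 over all tested genes. Il12rb2 had 79 and 80 counts in WT and 240 and 172 in KO, which are 3.40 and 2.92 CPM against 9.72 and 8.16 CPM (log2 fold change 1.58 ± 0.25, SE; edgeR adjusted p = 0.0194 with the sex term).

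**Figure D4:**
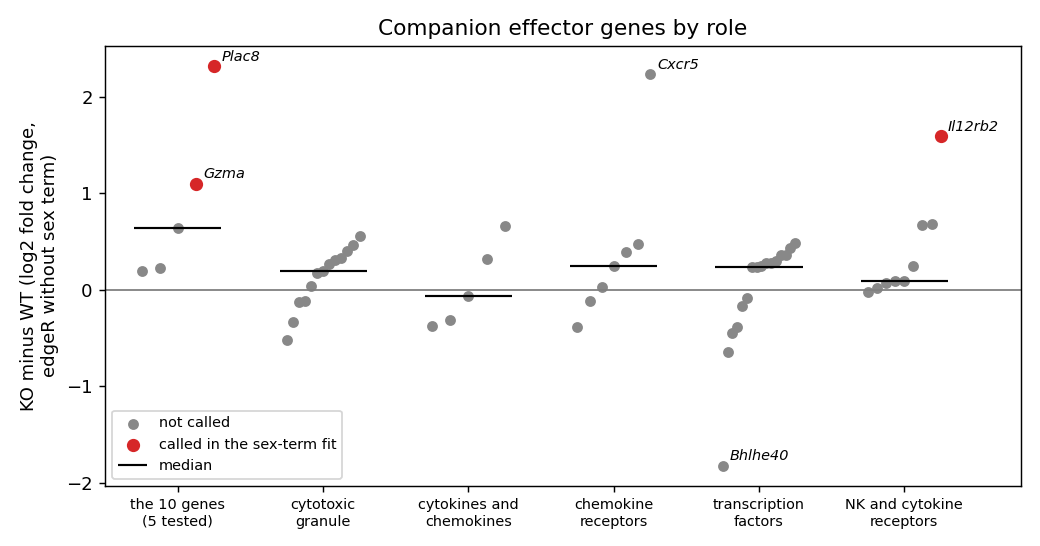
Log2 fold change of KO minus WT (y axis, edgeR without the sex term) for every tested gene of the 10 (left) and of the 5 companion lists, with the median of each as a line and genes called in the sex-term fit in red. Plac8, Gzma and Il12rb2 are the called genes, and the medians of the companion lists lie between -0.07 and 0.25.

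In the cytotoxic granule list 13 of 22 genes were tested and 0 were called in either fit. Most other granzymes were not detected: Gzmk, Gzmc, Gzmd, Gzme, Gzmf, Gzmg and Gzmn had 0 counts in every library, though the genes of the chromosome 14 cluster are close copies whose shared reads were left out. Gzmm had 30 and 25 counts in WT and 19 and 14 in KO. Gzmk is the nearest granzyme relative of Gzma in position, on the same chromosome. The most highly expressed granule genes per length were Lyst, a regulator of lysosome trafficking (log2 fold change 0.46; edgeR adjusted p = 0.322), and Srgn, the granule proteoglycan serglycin (0.40; edgeR adjusted p = 0.267). Prf1, which encodes perforin and is named after its values were seen, had 107 and 111 counts in WT and 155 and 121 in KO (log2 fold change 0.56; edgeR adjusted p = 0.301).

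Of 16 cytokine and chemokine genes 5 were tested and 0 called in either fit, and Ifng, the main product of T-bet-driven cells, had 0 counts in every library. Ltb and Lta were the highest per length in that list, with log2 fold changes of -0.07 and -0.31 (edgeR adjusted p = 0.814 and 0.671). Of 16 chemokine receptor and ligand genes 7 were tested and 0 called. The most highly expressed were Cxcr4 (-0.38; edgeR adjusted p = 0.369) and Ccr9 (0.03; edgeR adjusted p = 0.937), which position DP cells in the thymus. Of 18 transcription factors 16 were tested and 0 called. Id3, an inhibitor of E proteins, was among the most highly expressed there, and its log2 fold change was -0.38 (edgeR adjusted p = 0.267). The 2 points farthest from 0 among genes not called, named after their values were seen, rest on few counts: the chemokine receptor gene Cxcr5 had 3 and 3 counts in WT and 14 and 11 in KO, and the transcription factor gene Bhlhe40 23 and 14 against 8 and 1. Each passed the filter through 1 genotype alone. Of 29 NK receptor and cytokine receptor genes 9 were tested, and 13 had 0 counts in all libraries, among them Klrd1, Klrc1 and Klrg1.

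Markers of cells that express these effector genes and could be in a sort were read beside them. Of 9 NK markers, Ncr1, Klra8, Klra4 and Klre1 had 0 counts in all libraries, and the list summed to 1.90 and 1.97 CPM in WT and 1.499 and 2.18 CPM in KO, with 0 of 2 tested genes called. Of 7 gamma-delta T cell markers 6 were tested, and 1 was called higher in the sex-term fit, Tcrg-C2, a receptor gamma constant gene, with 9 and 11 counts in WT and 44 and 36 in KO (log2 fold change 2.21 ± 0.48, SE; edgeR adjusted p = 0.0365). Its WT levels, 0.388 and 0.402 CPM, lay under the filter's 0.417 CPM, so it too was tested through the KO libraries alone. Tcrg-C4 had 4 and 3 counts in WT and 13 and 10 in KO, and Tcrg-C1 34 and 20 against 62 and 32. Both were tested and neither was called in either fit (edgeR adjusted p = 0.175 and 0.172 with the sex term). Tcrg-C4, at 0.172 and 0.110 CPM in WT, was likewise tested through the KO libraries alone. These constant genes are close copies, so their counts are uncertain. The gamma-delta list summed to 92.6 and 80.5 CPM in WT and 94.8 and 96.2 CPM in KO, most of it Trdc. No gamma-delta marker was at 0 in all libraries.

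For iNKT cells, the 7 markers summed to 22.4 and 17.9 CPM in WT and 30.7 and 25.2 CPM in KO, with Zbtb16 at 0 in 3 libraries and Klrb1c (NK1.1) at 0 in both WT libraries and at 1 and 8 counts in KO. Most of that sum was Icos (13.6 and 12.5 CPM in WT, 15.4 and 17.5 in KO) and Cd44 (6.07 and 3.36, then 12.6 and 5.17), which other T cells also express. Of the segments of the iNKT receptor, Traj18 had 50 and 37 counts in WT and 46 and 19 in KO (log2 fold change -0.22 ± 0.51, SE; edgeR adjusted p = 0.839). Trav11 had at most 1 count in any library, too few to show a difference in either direction. Mature single-positive markers summed to 199.995 and 185 CPM in WT and 260.0 and 240.0 CPM in KO, with 0 of 6 tested genes called. Plac8 is also made by plasmacytoid dendritic and myeloid cells. Plasmacytoid markers summed to 235 and 267 CPM in WT and 242 and 298 CPM in KO, most of it Ly6d, and Siglech, which defines these cells, had 5 and 7 counts in WT and 18 and 6 in KO. Myeloid markers summed to 10.7 and 9.57 CPM in WT and 6.80 and 8.35 CPM in KO, with S100a8, Elane and Ltf at 0 throughout. That lower sum was mostly Lyz2 and Itgam, whereas Csf1r, the receptor gene of macrophage colony-stimulating factor, had 14 and 23 counts in WT and 58 and 29 in KO (log2 fold change 1.46; edgeR adjusted p = 0.267), and the Fc receptor gene Fcgr3 had 8 and 10 against 14 and 14 (0.86; edgeR adjusted p = 0.395). The lists for B cells, dendritic cells, erythroid cells, stroma and liver gave, among 17 tested genes, 1 call higher in the sex-term fit, the B cell gene Cd79b, and 1 lower, the liver gene Ttr, beside the 3.21% of all genes. Cd79a and Igkc, on the B cell list with Cd79b, had negative log2 fold changes (-1.04 and -0.96; edgeR adjusted p = 0.311 and 0.478), lower in KO in both pairs. Liver transcripts summed to 335 and 72.9 CPM in WT and to 312 and 5.60 CPM in KO, so they were higher in replicate 1 of each genotype. Gzma was likewise higher in replicate 1 of each genotype, and it was higher in KO than in WT within both replicate pairs. Each pair holds 1 library of each genotype, and the part of the replicate difference in the Gzma values was not tested. For the gamma-delta, iNKT and mature lists, whose sums were higher in both KO libraries than in WT, and for Csf1r, the part in the Gzma and Plac8 values was not tested.

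**Figure D5:**
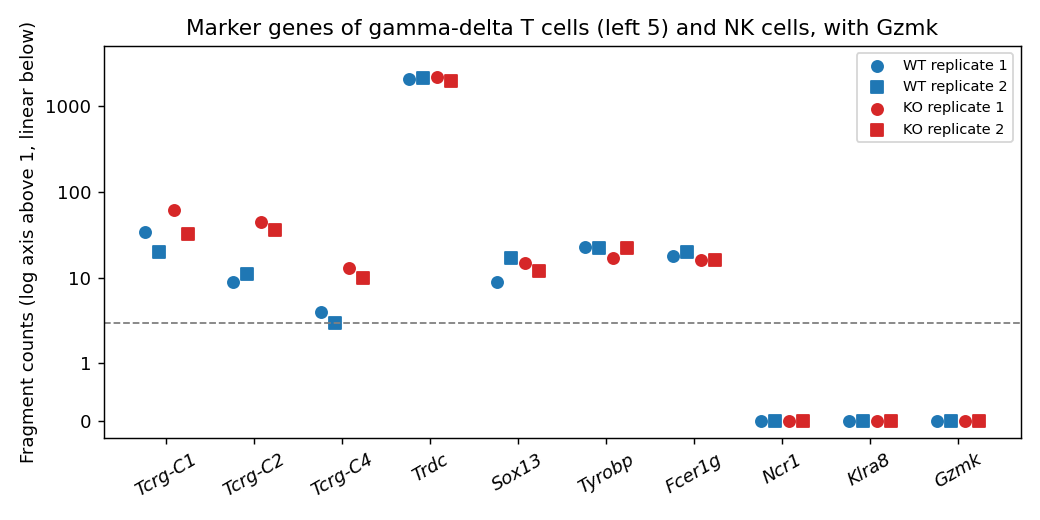
Fragment counts (y axis, logarithmic above 1 and linear below, dashed line at 3 counts) of gamma-delta and NK cell marker genes and of Gzmk in each library (points as labelled). Tcrg-C2 lies at 9 and 11 counts in WT and at 44 and 36 in KO, whereas Ncr1, Klra8 and Gzmk are at 0 in every library.

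The nearest genes that passed the filter on each side of Gzma and Plac8 were not called in either fit. Genes that did not pass the filter were skipped, so these need not be the adjacent genes. Cdc20b, 2.63 kilobases from Gzma, had 16 and 13 counts in WT and 12 and 4 in KO, with a log2 difference of -0.64 by edgeR (adjusted p = 0.624). Snx18, on the other side at 491 kilobases, had 0.14 (edgeR adjusted p = 0.697). Beside Plac8, Cops4 lay 5.92 kilobases away and was at 0.16 (edgeR adjusted p = 0.477), and Coq2 lay 82.5 kilobases away and was at -0.08 (edgeR adjusted p = 0.817).

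Over the 4 libraries, the coding genes of at least 5 CPM closest to Gzma in centred log2 level were Gm2a, the GM2 ganglioside activator, at a distance of 0.19, and the ribosomal protein genes Rps29 (0.23) and Rplp0 (0.27). All 3 were picked for closeness to Gzma over these 4 libraries, so being highest in KO replicate 1, as Gzma was, was built in. Rps29, for instance, stood at 376 CPM there and at 263 CPM in KO replicate 2, against 199 and 170.1 CPM in WT. The genes closest to Plac8 were the interleukin-9 receptor gene Il9r (0.41), the linker histone gene H1fx (0.50) and Il12rb2 (0.54). With 4 libraries in 2 genotypes, a small distance describes these libraries only, and 9059 and 9060 genes were compared for Gzma and Plac8.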

How the data were processed

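RNA was measured in 2 WT and 2 KO libraries of sorted DP thymocytes. Per the labels' protocols, mRNA was selected with poly-T beads with an unstranded kit. Per the submitters' processing notes, Trim Galore 0.5.0, HISAT2 and featureCounts 1.6.4 were used on GRCm38. The table deposited by the authors holds raw counts of fragments, assigned by featureCounts 1.6.3 to Ensembl 98 exons without strand per the file headers, with no option for multi-mapped or multi-gene reads. The deposited gene length (other unit: bases), per the file headers, was used for RPKM.

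Symbols came from GENCODE M21 and matched 98.1% of IDs, promoters from RefSeq. Genes were kept with filterByExpr (10 counts in a library of median size, 0.417 CPM, in at least 2 libraries; 15070 genes), scaled with TMM (0.919 to 1.04) and tested in R 4.3.3 with edgeR 4.0.16, KO minus WT, Benjamini-Hochberg threshold 0.05. The intervals of fold changes follow from the F statistic. Pair differences are on the log2 CPM scale (prior count 2). DESeq2 1.42.0, limma 3.58.1 voom, other scalings, no filter, a replicate block and left-out libraries were alternatives. Intervals and floors cover counting error only. An exact permutation test of 2 against 2 libraries cannot go below p = 0.333 (two-sided). The labels do not say that replicates are separate animals, but the sexes differ within each genotype, and p-values reflect only how far these 4 libraries spread. The members and lists were chosen with earlier results of these data known. All 10 genes are named, of each companion list the called genes or else the 2 highest per length (1 of these is not reported here), the neighbours, and the 3 most similar genes of each called gene.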

Additional observations from a re-analysis of the deposited data

Results flagged for a closer look

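Within each genotype the replicate numbers separate the sexes, and some named genes moved in opposite directions in the 2 pairs. These differences each rest on 1 KO and 1 WT library per sex and were not tested. Tbx21 had a KO minus WT log2 difference of 1.11 in the replicate 1 pair and -0.69 in the replicate 2 pair, from 29 and 5 counts in the KO libraries. Lta, which encodes lymphotoxin alpha, had -0.84 and 0.17, and Ltb, its partner, -0.27 and 0.13. Ccr9 had 0.14 and -0.10.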

How the results depend on the processing

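Without a sex term 0 of the 10 genes were called higher. The replicate block (sex term), the block with DESeq2 size factors, the block with all genes of at least 1 count, and no filter without the block each gave 2. Over all 15070 genes the first of these called 152 higher and 331 lower, and the block with DESeq2 size factors 134 and 282. With all 26019 genes of at least 1 count the calls were 556 and 965 with the block and 627 and 838 without it. DESeq2, the block with library totals, the block with DESeq2 and the block with robust dispersion each gave 1. In that order, among the 15070 genes entered, they called 172 higher and 276 lower, 26 and 119, 128 and 254, and 29 and 47. With 1 library left out, a genotype holds 1 library and its spread cannot be estimated, so no calls are given for those fits. None of the 10 was called lower in any alternative that kept all libraries. Of the companion genes, where 0 were called higher without the term, 1 was called with the block, with no filter, with DESeq2, and with the block plus library totals, DESeq2 size factors, all genes of at least 1 count, DESeq2 or robust dispersion, and 0 to 9 with 1 library left out. Lower companion calls were 0 in every alternative but 1, the fit without KO replicate 2, with 6 (range 0 to 6 with 1 library left out). The log2 fold change lay between 0.65 and 1.44 for Gzma and between 2.09 and 2.51 for Plac8. With 1 library left out, Ccl5 ranged from -0.14 to 0.72 and Tbx21 from -1.04 to 1.39. Ccl5 turned to -0.12 without WT replicate 1 and -0.14 without KO replicate 2, and Tbx21 to -1.04 without KO replicate 1. The cause was not tested. Over all genes the count of calls was 1 higher and 0 lower without the block and 152 and 331 with it. The labels do not tie equal replicate numbers to a shared animal. Over 9641 autosomal genes the difference between replicates 1 and 2 in WT and in KO had a Pearson correlation of 0.41. The Spearman correlation, on ranks, was 0.17. Library totals moved the median of all genes by -0.08. Depth limits Gzmb, Xcl1, Zbtb16, Cxcr3 and Nkg7, which had at most 11 counts in a library.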
